A study of Mus musculus with 34 samples.

Results

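Mouse embryonic stem cells (ESCs) with 1 copy of the 7qF3 interval were compared with ESCs that carried 2 copies, by RNA sequencing. The comparison used the 6 libraries whose titles name the deletion or the duplication-deletion genotype in ESCs, 3 of each, out of 28 RNA libraries and 34 samples in the series. Deletion ESCs had the labelled genotype 129Sv df/+, a deleted and an intact chromosome 7. Duplication-deletion ESCs had the genotype 129Sv df/dp, in which the deleted chromosome is shared with the deletion cells and the other chromosome carries the interval in duplicate. Both had the labelled background strain C57BL/6N, as had 3 libraries of control ESCs (129Sv +/+), which entered the same fit and are given beside the mutants. All were grown on gelatine with serum and the cytokine LIF, which keeps mouse ESCs undifferentiated. The lines came from 1 source laboratory, and no label tells if replicates were separate clones or cultures; a p-value here reflects library-to-library spread, which may be technical. Genotype therefore cannot be told apart from differences between cell lines.

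The 7qF3 interval matches human 16p11.2, whose loss and gain are recurrent copy number changes in people with autism. Its genes act in kinase signalling, chromatin and chromosome movement, RNA splicing, glycolysis and membrane biology, and most are expressed broadly. Because both genotypes carry the same deleted chromosome, they differ at the interval by the number of copies on the other one. Imprinted genes, which come up below, are transcribed from the maternal or the paternal copy only, under the control of DNA methylation at a few regulatory regions.

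The libraries held 35672610, 38022362 and 5578151 expected counts in deletion replicates 1 to 3, and 69523477, 45884471 and 22935331 in duplication-deletion replicates 1 to 3. Replicate 3 stood apart in every genotype. Nanog, a pluripotency factor, had 7.93, 10 and 101 CPM (counts scaled to library size with TMM factors) in deletion ESCs, 4.08, 20 and 101 CPM in duplication-deletion ESCs, and 16.8, 13 and 95.8 CPM in control ESCs. Same-numbered libraries deviated together from their group means, so the test with the replicate number as a block is given beside the test without it. Without the block, edgeR's quasi-likelihood test called 0 of 16470 genes between deletion and duplication-deletion ESCs (0.0%) at a Benjamini-Hochberg adjusted p below 0.05, while 164 had an unadjusted p below 0.05. With the block it called 13 genes (0.0789%), of which 3 were higher (0.0182% of the genes tested) and 10 were lower (0.0607%) in deletion ESCs. DESeq2 without the block called 18, of which 8 were among those 13, and limma-voom without the block called 0. Leaving out single libraries moved the blocked count to between 0, without deletion replicate 1, and 12. It was also 4 without deletion replicate 2, 4 without deletion replicate 3 and 3 without duplication-deletion replicate 2. Of the 6 blocked fits that each left out 1 mutant library, 5 called 2900092E17Rik, Aldoa and Cdkn1c, 3 called Taok2, 2 called Maz, Kif22, Cd2bp2, Snurf and D7Ertd715e, 1 called AK220028, and 0 called Ino80e, Hirip3 and Tbc1d10b.

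Of the 33 genes listed for the interval, from Giyd1 (now Slx1b) to Sept1, 29 passed the filter on low counts. The interval spans chr7:133832441-134361959 in mm9, or 530 kb, and 30 of the genes have a position in the deposited table. In deletion ESCs the typical interval gene was expressed at a little under 50% of its duplication-deletion level. The median tested gene was at 35.6%, 48.0% and 56.7% of the duplication-deletion mean in deletion replicates 1 to 3, against 89.1%, 89.8% and 122% in duplication-deletion replicates 1 to 3. The groups did not overlap, at 46.8 ± 10.6% and 100.0 ± 19% (mean ± SD, n = 3 each), with an exact two-sided permutation p of 0.1, the smallest that 3 against 3 can give. Divided by the same-numbered duplication-deletion library, the median was 46.7%, 48.1% and 45.9%, a spread narrower than that within either group. Control ESCs stood at 98.9%, 86.1% and 115%, within the range of the duplication-deletion libraries in replicates 1 and 3 and just below it in replicate 2.

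By the fit, 28 of 29 tested interval genes had a negative log2 fold change, with a median of -1.16, against a median of -0.02 over all genes tested. An unadjusted p below 0.05 with lower values in deletion ESCs was found for 17 of them, against 0.656% of all genes. In 14 of 29 the highest deletion library lay below the lowest duplication-deletion library, against 2.76% of all genes tested. With the replicate block, 9 of the 10 genes called lower in deletion ESCs were interval genes. Among the 19 tested interval genes with a mean of at least 5 CPM, deletion ESCs averaged between 33.3% and 85% of the duplication-deletion mean. Of these, 16 stood between 33% and 60%, and 17 were lower in deletion ESCs in all 3 same-numbered pairs. Outside that window were Kctd13, Sept1 and Mylpf, the last of them at its upper edge.

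**Figure D1:**
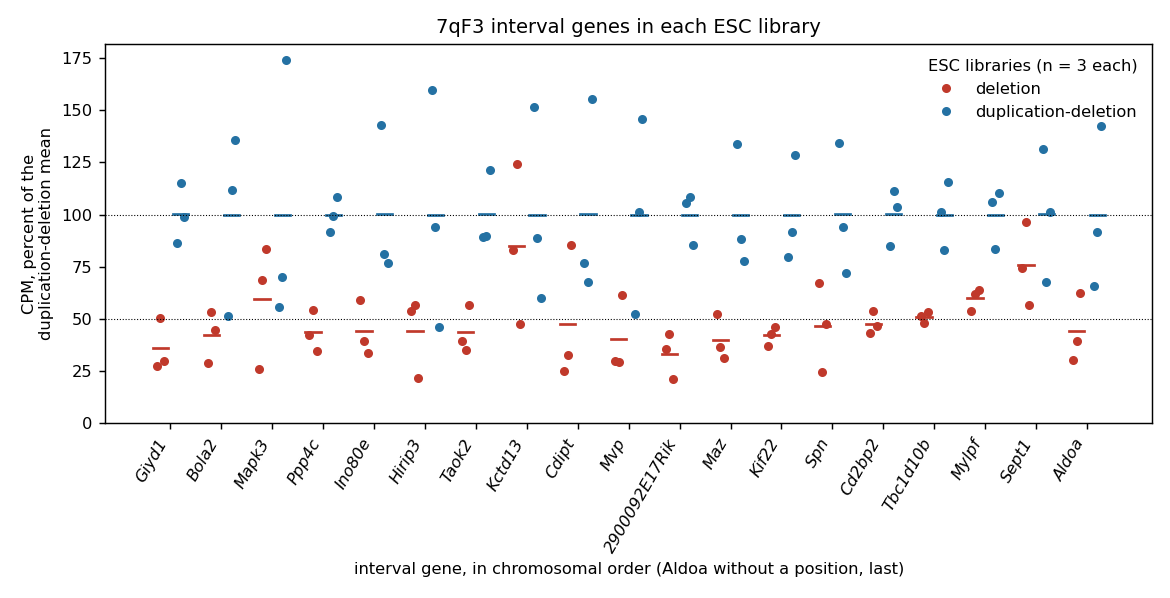
Level of each 7qF3 interval gene with a mean of at least 5 CPM in the 3 deletion (red) and 3 duplication-deletion (blue) ESC libraries, as a percent of the duplication-deletion mean (y axis). Short lines mark group means and dotted lines 50% and 100%; deletion means run from 33.3% to 85%, with Kctd13 and Sept1 the highest.

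Nuclear and chromosome genes of the interval gave the most calls. All 8 tested had negative log2 fold changes, with a median of -1.28, and 6 fell with the block. Among the nuclear interval genes called, the largest log2 fold change was that of 2900092E17Rik, now Pagr1a, which encodes a subunit of the MLL3 and MLL4 histone methyltransferase complexes. It had 8.68, 10.5 and 5.14 CPM in deletion ESCs, against 25.8, 26.5 and 20.8 CPM in duplication-deletion ESCs. The highest deletion library was below the lowest duplication-deletion library, with a blocked log2 fold change of -1.6 (SE 0.166, edgeR adjusted p = 0.00375). Maz, a zinc finger transcription factor of GC-rich promoters, had 22.6, 15.8 and 13.4 CPM in deletion ESCs and 57.6, 37.9 and 33.5 CPM in duplication-deletion ESCs. Its groups did not overlap either, and it fell by 1.3 on the log2 scale with the block (SE 0.145, edgeR adjusted p = 0.00382). Kif22, a kinesin that moves chromosomes in mitosis, had 20.6, 23.7 and 25.6 CPM in deletion ESCs, against 44.1, 50.6 and 70.9 CPM in duplication-deletion ESCs. All deletion libraries lay below all duplication-deletion libraries, and the blocked log2 fold change was -1.22 (SE 0.151, edgeR adjusted p = 0.00812). The promoters of these 3 genes are shown with the binding motif of MAZ, since Maz encodes a promoter-binding factor. All 3 genes lie in the interval that differs in copy number, and whether MAZ acts on them was not tested. The sequences come from RefSeq on GRCm38.p6, another build than mm9, and all lie on the minus strand. Capitals mark GGGAGGG, a core of the MAZ binding motif, on either strand (CCCTCCC). It occurred in 22.0% of the 32851 listed promoters of this length. The Maz promoter held it 4 times, 1 pair of matches sharing a base, and the Kif22 and Pagr1a promoters did not hold these letters. Of 25 interval genes matched to a promoter, 11 had it in at least 1 of their promoters, against 23.8% of all genes. The genes behind that share were not matched for base content or expression, so the 2 values cannot tell of a role of MAZ.
2900092E17Rik (Pagr1a), chr7:127017303-127017602: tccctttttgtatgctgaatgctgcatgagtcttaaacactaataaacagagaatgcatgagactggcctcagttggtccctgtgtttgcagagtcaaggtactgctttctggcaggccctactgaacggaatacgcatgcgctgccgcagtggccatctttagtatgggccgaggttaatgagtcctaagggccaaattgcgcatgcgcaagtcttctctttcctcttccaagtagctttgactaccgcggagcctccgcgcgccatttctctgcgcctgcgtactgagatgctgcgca
Maz, chr7:127026956-127027255: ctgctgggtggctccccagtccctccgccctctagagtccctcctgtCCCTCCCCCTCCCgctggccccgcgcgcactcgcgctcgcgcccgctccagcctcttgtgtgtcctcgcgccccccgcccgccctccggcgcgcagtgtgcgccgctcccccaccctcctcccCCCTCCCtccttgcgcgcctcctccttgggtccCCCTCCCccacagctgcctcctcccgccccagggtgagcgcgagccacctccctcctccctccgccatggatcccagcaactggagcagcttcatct
Kif22, chr7:127042371-127042670: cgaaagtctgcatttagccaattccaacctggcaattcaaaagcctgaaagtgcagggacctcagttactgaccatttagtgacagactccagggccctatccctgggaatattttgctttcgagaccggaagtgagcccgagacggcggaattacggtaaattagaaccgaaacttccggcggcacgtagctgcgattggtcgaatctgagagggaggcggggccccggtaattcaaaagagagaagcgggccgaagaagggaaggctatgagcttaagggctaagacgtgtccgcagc

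A further 3 nuclear genes fell in the blocked test. Cd2bp2, a splicing factor of the U5 particle, averaged 23.2 ± 2.6 CPM in deletion ESCs and 48.6 ± 6.67 CPM in duplication-deletion ESCs (SD, n = 3 each; edgeR adjusted p = 0.0042). Ino80e, a subunit of the INO80 chromatin remodeller, averaged 12.3 CPM in deletion ESCs and 27.9 CPM in duplication-deletion ESCs. Hirip3, which binds the histone chaperone HIRA, averaged 24.4 CPM in deletion ESCs and 55 CPM in duplication-deletion ESCs. Both had a blocked edgeR adjusted p of 0.0277, but leaving out any 1 mutant library ended both calls (edgeR adjusted p up to 0.255 for Ino80e and 0.444 for Hirip3). The Hirip3 groups overlapped, with 29.7, 31.3 and 12.1 CPM in deletion ESCs against 87.9, 51.8 and 25.3 CPM in duplication-deletion ESCs. Within each replicate number, however, the deletion library was the lower one. By the positions in the deposited table, Ino80e overlaps Doc2a at one end and Hirip3 at the other, and whether counting used the strand is not given in the sources used here. Giyd1, the nuclease subunit SLX1, stood at 35.9% of the duplication-deletion mean without overlap, but missed the threshold with the block (edgeR adjusted p = 0.0941), while DESeq2 called it with and without the block. Tbx6, a mesoderm factor, had only 2 counts over the deletion libraries and 40 over the duplication-deletion libraries.

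Of the 10 signalling and cytoskeletal genes, all tested and all with negative log2 fold changes (median -0.85), 2 fell with the block. Taok2, a kinase upstream of p38 and JNK signalling, had 13.3, 11.9 and 19.1 CPM in deletion ESCs, against 30, 30.2 and 40.7 CPM in duplication-deletion ESCs. The groups were separate, with a blocked log2 fold change of -1.21 (SE 0.133, edgeR adjusted p = 0.00382). Tbc1d10b, a GTPase-activating protein for Rab proteins, had 16.8, 15.6 and 17.3 CPM in deletion ESCs, against 32.9, 27 and 37.6 CPM in duplication-deletion ESCs (blocked edgeR adjusted p = 0.0227), again without overlap. Leaving out any 1 mutant library ended this call (edgeR adjusted p up to 0.26). Ppp4c, the catalytic subunit of protein phosphatase 4, stood at 43.6% of the duplication-deletion mean without overlap, and just missed the threshold (blocked edgeR adjusted p = 0.0561), while DESeq2 called it with and without the block. Mapk3, the kinase ERK1, was at 4.62, 12.2 and 14.8 CPM in deletion ESCs and 9.9, 12.4 and 30.8 CPM in duplication-deletion ESCs. Its groups overlapped, and the second pair hardly differed, with a log2 fold change of -0.76 (SE 0.546, edgeR adjusted p = 1.0). Kctd13, a cullin-3 adaptor that targets RhoA, was the interval gene of at least 5 CPM nearest to equality, with 9.21, 13.8 and 5.31 CPM in deletion ESCs against 16.8, 9.84 and 6.67 CPM in duplication-deletion ESCs. The second pair ran the other way, and the log2 fold change was -0.22 (SE 0.466); it turned positive without deletion replicate 3 (0.05) or duplication-deletion replicate 1 (0.21). Mylpf and Sept1, the last 2 genes on the far side of the interval, had about 60% and 75.9% of the duplication-deletion mean. Sept1, a septin, overlapped between the groups (23.7, 30.8 and 18.1 CPM in deletion ESCs, 41.9, 21.6 and 32.3 CPM in duplication-deletion ESCs).

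Among the metabolic, membrane and vesicle genes, 10 of 11 tested were negative, with a median of -1.16, and 1 fell with the block. Aldoa, the glycolytic aldolase, had 247, 320 and 504 CPM in deletion ESCs, against 530, 742 and 1150 CPM in duplication-deletion ESCs. The levels differed between replicate numbers in both genotypes, so the groups nearly met, yet each deletion library was under its same-numbered partner, and the blocked log2 fold change was -1.17 (SE 0.103, edgeR adjusted p = 0.00186). Without the block its SE was 0.409. Bola2, an iron-sulfur cluster protein, Mvp, the major vault protein, Spn, the surface sialoglycoprotein CD43, and Cdipt, which makes phosphatidylinositol, stood at 42.4%, 40.3%, 46.5% and 47.8% of the duplication-deletion mean, and none was called by edgeR on all libraries, with or without the block. DESeq2 with the block called Mvp (adjusted p = 0.00224) and Cdipt (adjusted p = 0.00219) among 14 interval genes, and the blocked edgeR test called Mvp without duplication-deletion replicate 1 (adjusted p = 0.0213) and without replicate 1 of all genotypes (adjusted p = 0.0399). Sez6l2, a neuronal membrane protein with 20 counts over the deletion libraries and 30 over the duplication-deletion libraries, was the 1 interval gene with a positive log2 fold change (0.2, SE 1.67); it turned negative in 6 of the alternatives tried. Gdpd3, Zg16 and 4930451I11Rik had 0 counts in all 6 libraries, and Asphd1 had 1 count over the deletion libraries and 16 over the duplication-deletion libraries. The 4 were not tested. Of the remaining low genes, Ypel3, a yippee-like protein, Doc2a, a calcium sensor of vesicle release, and Qprt, of NAD synthesis, stood at 36.4%, 49.7% and 36.4% of the duplication-deletion mean. Tmem219, AI467606 and Fam57b stood at 51.5%, 46.3% and 35.6%. Coro1a, an actin-binding protein, and Prrt2, a presynaptic protein, stood at 77.5% and 80.4%, with SEs of 1.05 and 0.553 on the log2 scale, and the direction of both turned in some alternatives.

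Genes within 2 Mb of the borders of the interval gave no call by edgeR. Within 2 Mb, 20 genes tested on the Giyd1 side had a median log2 fold change of 0.0, and 59 on the Sept1 side had a median of -0.08. No flanking gene was called by edgeR, with or without the block, and 0 had an unadjusted p below 0.05 without it. With the block, 1 was higher and 1 lower at that threshold on the Giyd1 side, and 1 higher and 2 lower on the Sept1 side. Of all genes, 2.71% were higher and 3.67% lower. Without overlap, 4 genes were lower and 0 higher on the Sept1 side, against 2.76% and 2.0% of all genes, and 0 either way on the Giyd1 side. On the Giyd1 side, Ccdc101, a subunit of the SAGA coactivator, lies 16.1 kb from the interval and had 12.5, 8.13 and 11.9 CPM in deletion ESCs, against 10.9, 9.96 and 11.3 CPM in duplication-deletion ESCs. These values overlapped fully (log2 fold change 0.01, SE 0.25). On the Sept1 side, the nearest 5 genes, Gm4532, Zfp553, Zfp771, Dctpp1 and Sephs2, had log2 fold changes of -1.03, -0.08, -0.57, -0.23 and -0.36. Sephs2, a selenophosphate synthetase 53.4 kb away, did not overlap between the groups, with 52.3, 55.9 and 32.9 CPM in deletion ESCs against 61.5, 63.7 and 56.6 CPM in duplication-deletion ESCs, but was not called (blocked edgeR adjusted p = 0.759).

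**Figure D2:**
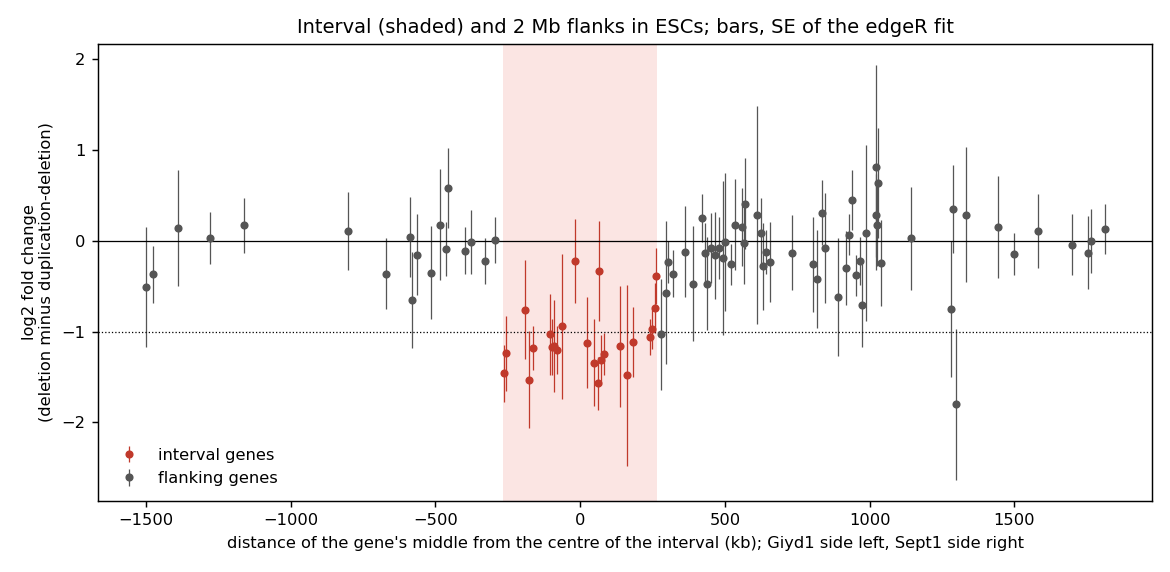
Log2 fold change (deletion minus duplication-deletion, y axis) with its SE for genes with a mean of at least 1 CPM in the interval (red, shaded span) and within 2 Mb of it (grey), by distance from the centre of the interval in kb (x axis). Interval genes centre on -1.16, and the medians of the flanks are 0.0 and -0.08.

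The genes that rose in deletion ESCs with the block were 3 imprinted genes of chromosome 7, all outside the interval. Snurf and D7Ertd715e lie in the Snrpn domain, transcribed from the paternal chromosome; D7Ertd715e is now part of Snhg14, the long RNA downstream of Snurf and Snrpn. Snurf (chr7:67127388-67150042 in mm9) had 93.6, 103 and 51.6 CPM in deletion ESCs, 15.6, 18.7 and 17.1 CPM in duplication-deletion ESCs, and 138, 110 and 52.1 CPM in control ESCs. The duplication-deletion libraries were the low ones, under every deletion and control library. The log2 fold change of deletion over duplication-deletion ESCs was 2.28 (SE 0.385), or 2.2 with the block (edgeR adjusted p = 0.0493). In the blocked fits that each left out 1 mutant library the edgeR adjusted p was at most 0.437. D7Ertd715e had 62.8, 63.6 and 26.4 CPM in deletion ESCs, 8.66, 9.41 and 6.37 CPM in duplication-deletion ESCs, and 59.4, 53.6 and 16 CPM in control ESCs. Again the duplication-deletion libraries lay below all others, and the gene rose with the block (log2 fold change 2.55, edgeR adjusted p = 0.00377). Counts of Snurf, D7Ertd715e and the overlapping Snrpn entry cannot be assigned to 1 transcript. Of the 8 tested genes of the domain, 7 were positive, with a median of 0.29, and 3, with Magel2 the third, were higher in deletion ESCs without overlap, against 2.0% of all genes. Magel2 had 0.655, 1.1 and 0.498 CPM in deletion ESCs, against 0.136, 0.308 and 0.429 CPM in duplication-deletion ESCs, too low to be precise (log2 fold change 1.4, SE 1.33). The Snrpn entry had 0 counts over the deletion libraries and 54 over the duplication-deletion libraries. Ndn and Peg12 had log2 fold changes of 0.48 (SE 0.576) and 0.1 (SE 0.591), Ube3a, expressed from both copies outside neurons, one of 0.04 (SE 0.433), and Mkrn3 one of 0.03 (SE 0.437).

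Cdkn1c, an inhibitor of cyclin-dependent kinases expressed from the maternal chromosome, was the other gene that rose. It had 33.2, 38.7 and 21.4 CPM in deletion ESCs, 10.3, 15 and 7.59 CPM in duplication-deletion ESCs, and 27.2, 31.5 and 20.1 CPM in control ESCs. No deletion library overlapped the duplication-deletion ESCs, and the blocked log2 fold change was 1.52 (edgeR adjusted p = 0.0022). In the same domain Phlda2, a maternally expressed growth regulator of the placenta, had 34.1, 34 and 12.3 CPM in deletion ESCs, 12.4, 17.9 and 7.26 CPM in duplication-deletion ESCs, and 40.3, 37.5 and 19 CPM in control ESCs. Its deletion and duplication-deletion values overlapped, and it missed the threshold (blocked log2 fold change 1.07, edgeR adjusted p = 0.0529), while DESeq2 and limma-voom with the block did call it. Kcnq1ot1, the paternal noncoding RNA that silences this domain in cis, had 463, 255 and 243 CPM in deletion ESCs, 911, 329 and 337 CPM in duplication-deletion ESCs, and 355, 169 and 148 CPM in control ESCs. Within each replicate number it was lowest in control and highest in duplication-deletion ESCs, with a blocked log2 fold change of -0.61 between the mutants (edgeR adjusted p = 0.311). DESeq2 with the block called it. Of the 11 tested genes of the domain, 6 were positive, with a median of 0.43; Nap1l4 and Cd81 had log2 fold changes of -0.09 and -0.14.

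Over the 53 imprinted genes tested, differences ran in both directions. In deletion ESCs 16 were higher in all 3 same-numbered pairs (30.2%, against 14.2% of all genes tested) and 12 were lower in all 3 (22.6%, against 16.5%). Without overlap between the groups, 8 were higher and 1 lower, against 2.0% and 2.76% of all genes. At an unadjusted p below 0.05 without the block, 6 were higher and 0 lower, against 0.34% and 0.656% of all genes, and with the block 11 were higher and 7 lower, against 2.71% and 3.67%. With the block edgeR called 3 higher, those above, against 0.0182% of all genes, and 0 lower. The median of -0.02 was that of all genes. Of the others, Plagl1, Usp29 and Peg3 were higher in deletion ESCs without overlap and were not called by edgeR. Plagl1, a paternally expressed zinc finger factor on chromosome 10, had 5.14, 4.91 and 5.31 CPM in deletion ESCs, 1.87, 0.806 and 1.68 CPM in duplication-deletion ESCs, and 4.67, 3.94 and 3.62 CPM in control ESCs (blocked log2 fold change 1.87, edgeR adjusted p = 0.11). DESeq2 did call it, with and without the block. In the Peg3 domain of proximal chromosome 7, Usp29 had 9.37, 9.67 and 12.6 CPM in deletion ESCs, 5.58, 6.99 and 4.39 CPM in duplication-deletion ESCs, and 8.73, 11.5 and 5.26 CPM in control ESCs. Peg3 itself, also paternally expressed, had 95.3, 114 and 113 CPM in deletion ESCs, against 68.3, 72.9 and 86.1 CPM in duplication-deletion ESCs (blocked edgeR adjusted p = 0.773). Nespas, Cobl, Airn and Commd1, outside these domains, were also higher in deletion ESCs in every pair, with log2 fold changes from 0.29 to 2.74, and Gnas, Nnat, Meg3, Rian and Mirg were lower in every pair, with log2 fold changes from -0.3 to -0.57. Gnas, which encodes the stimulatory G protein alpha subunit, had 42.2, 40.5 and 54.3 CPM in deletion ESCs, against 51, 79.4 and 60.9 CPM in duplication-deletion ESCs (blocked edgeR adjusted p = 0.734). No gene of these 9 was called by edgeR, with or without the block, and Cobl was called by DESeq2 with the block; Cobl and Commd1 lie on chromosome 11, described below. Of 16 tested factors that write, erase or protect DNA methylation at imprints, such as Dnmt3a, Dnmt3b, Tet1 and Tet2, none was called by edgeR, with or without the block, or had an unadjusted p below 0.05 without it, and their median was 0.02. DNA methylation was not measured in the data used here. Control values stand beside the mutants as a description, and where each mutant lies relative to control was not tested.

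The RefSeq promoters of Snurf, Kcnq1ot1 and Plagl1 are shown because each starts a paternally expressed transcript at a methylated regulatory region. They come from GRCm38.p6, on the minus strand for Snurf and Kcnq1ot1 and the plus strand for Plagl1. Capitals mark TGCCGC, the core bound by the imprint-protecting factor ZFP57 when methylated, on either strand (GCGGCA); it occurred in 11.6% of the 32851 listed promoters. Snurf and Plagl1 each held 1 match, and the Kcnq1ot1 window did not hold these letters.
Snurf, chr7:60005150-60005449: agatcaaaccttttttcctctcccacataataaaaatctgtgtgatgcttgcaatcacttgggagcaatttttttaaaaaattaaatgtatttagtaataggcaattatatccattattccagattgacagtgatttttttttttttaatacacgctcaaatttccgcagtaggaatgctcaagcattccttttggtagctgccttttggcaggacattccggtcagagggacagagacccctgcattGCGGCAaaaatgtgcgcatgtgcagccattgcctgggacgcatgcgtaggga
Kcnq1ot1, chr7:143296498-143296797: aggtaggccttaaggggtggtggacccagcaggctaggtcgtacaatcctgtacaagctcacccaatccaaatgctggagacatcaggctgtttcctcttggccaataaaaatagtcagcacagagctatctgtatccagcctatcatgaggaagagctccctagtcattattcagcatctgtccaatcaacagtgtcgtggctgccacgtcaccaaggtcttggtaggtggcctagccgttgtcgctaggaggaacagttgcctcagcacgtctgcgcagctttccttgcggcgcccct
Plagl1, chr10:13090582-13090881: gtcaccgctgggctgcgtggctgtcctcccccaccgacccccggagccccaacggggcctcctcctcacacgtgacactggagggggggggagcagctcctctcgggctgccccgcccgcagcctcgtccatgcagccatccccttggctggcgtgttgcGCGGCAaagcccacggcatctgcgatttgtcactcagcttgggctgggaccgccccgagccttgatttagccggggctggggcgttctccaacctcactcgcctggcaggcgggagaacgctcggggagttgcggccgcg

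**Figure D3:**
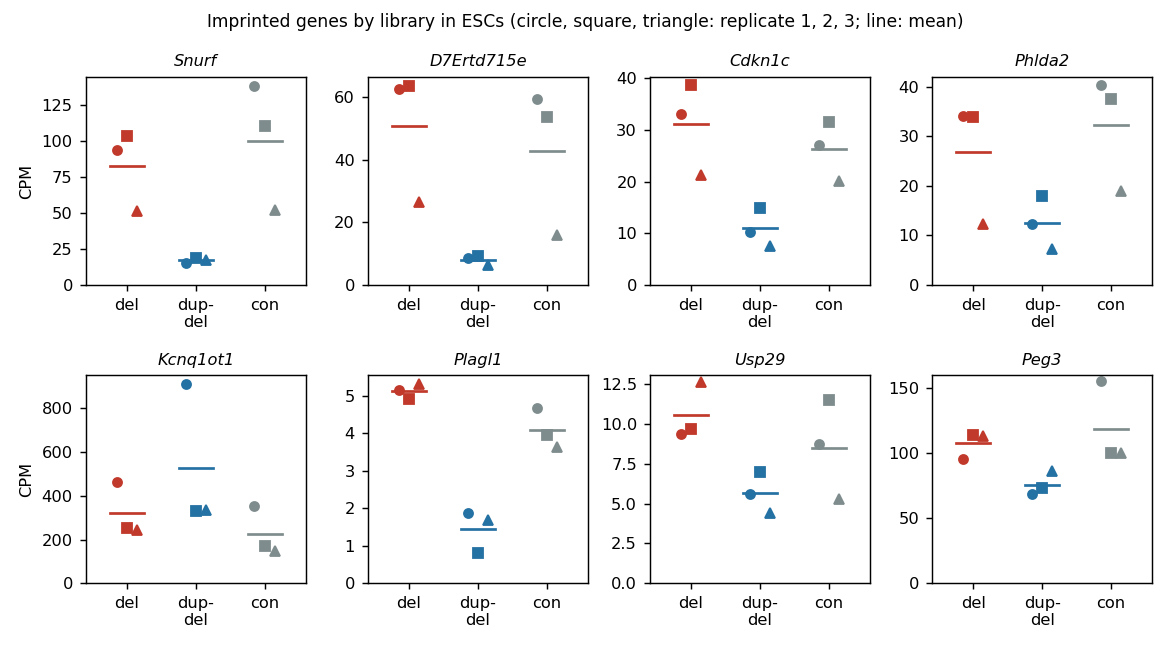
CPM (y axes, each from 0) of 8 imprinted genes in the deletion, duplication-deletion and control ESC libraries, with replicate 1, 2 and 3 as circle, square and triangle and lines at group means. Snurf, D7Ertd715e, Cdkn1c and Plagl1 are lower in all duplication-deletion libraries than in any deletion library.

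Beyond the interval, 1 gene fell with the block. AK220028, an entry of the X chromosome with no gene name in the tables used, had 6.42, 5.57 and 0.83 CPM in deletion ESCs, against 24.2, 21.1 and 1.32 CPM in duplication-deletion ESCs (blocked edgeR adjusted p = 0.0277). The replicate 3 libraries of both mutant genotypes lay below the other mutant libraries, and control replicate 3 was as low, at 0.817 CPM. Among genes with an unadjusted p below 0.05, a mean of at least 5 CPM and no overlap, the largest differences beyond those named were Xlr3a, Znf496, Raet1d, Usp26 and Scml2, higher in deletion ESCs, and AK010878, Fgfbp1 and Cbr3, lower. Xlr3a, Usp26 and Scml2 lie on the X chromosome; Usp26, a deubiquitinase, and Scml2, a Polycomb protein, are best known from male germ cells. Xlr3a had 22.6, 28.9 and 25.7 CPM in deletion ESCs, 6.43, 10.4 and 10.7 CPM in duplication-deletion ESCs, and 9.45, 31.9 and 18.1 CPM in control ESCs (blocked edgeR adjusted p = 0.0547). Usp26 had 57.9, 61.6 and 53.6 CPM in deletion ESCs, against 28.8, 31.3 and 19.3 CPM in duplication-deletion ESCs (blocked edgeR adjusted p = 0.0557). Both were separate between the mutants, and the control libraries of Xlr3a spread over both ranges. Those of Usp26, at 35.6, 69.2 and 32 CPM, also spread widely, from just above the duplication-deletion range to above the deletion range. On the X chromosome, 11 of 563 genes tested (1.95%) were higher at an unadjusted p below 0.05 without the block, against 0.34% of all genes, and 2 (0.355%) were lower, against 0.656%. With the block the counts were closer, with 24 higher (4.26%, against 2.71% of all genes) and 21 lower (3.73%, against 3.67%). Of the 11, 4, Xlr3a, Xlr3b, Xlr4a and Xlr5b, are related copies of 1 family, between which reads may be split. These 4 and the chromosome's count were picked after their values were seen. The Y-linked Ddx3y, Uty and Eif2s3y were expressed in every library and none was called, and Xist ran from 36.6 to 80.3 CPM in deletion ESCs and from 25.1 to 81.4 CPM in duplication-deletion ESCs. Kdm5d, also Y-linked, had 0.721, 2.02 and 0.332 CPM in deletion ESCs, against 0.595, 0.166 and 0.297 CPM in duplication-deletion ESCs. All 5 of these sex-linked genes had positive log2 fold changes, and 2, Ddx3y and Kdm5d, were higher in all 3 pairs. None of the 5 was called by edgeR.

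Chromosome 11 was set apart from the other chromosomes by a small shift in many genes, which was noticed after the values were seen and was not tested. Of its 1265 tested genes, 794 had a positive log2 fold change (62.8%), against 47.6% of all genes, and the median was 0.09, or 0.11 with the block. At an unadjusted p below 0.05 without the block, 5 were higher (0.395%, against 0.34% of all genes) and 7 lower (0.553%, against 0.656%). With the block 95 were higher (7.51%, against 2.71% of all genes) and 17 lower (1.34%, against 3.67%). Between same-numbered libraries the median log2 ratio of deletion over duplication-deletion was 0.09, 0.11 and 0.07, over 767 genes with a mean of at least 5 CPM in the 9 ESC libraries. The medians of the 19 other chromosomes ran from -0.05 to 0.01, from -0.05 to 0.01 and from -0.11 to 0.03 in the 3 pairs. On chromosome 11, 33.5% of genes were higher in deletion ESCs in all 3 pairs, against 11% to 17.3% on the others. Control ESCs lay further out, with median log2 ratios of control over duplication-deletion of 0.17, 0.19 and 0.16. Along the chromosome the blocked median was between 0.08 and 0.19 in the 20 Mb windows from 20 to 120 Mb, and 0.02 and 0.01 in the windows at the ends. Without deletion replicate 3 and without the block the median was -0.0, and with the block and without that library it was 0.12. Whether the lines differed in the number of this chromosome was not tested. Genes named for other reasons lie there, among them Taok1, the paralog of Taok2, with 430, 319 and 320 CPM in deletion ESCs against 351, 245 and 233 CPM in duplication-deletion ESCs, and also Znf496, Gdpd1 and Ypel2. The value of Taok1 is thus to be read beside that of its chromosome.

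**Figure D4:**
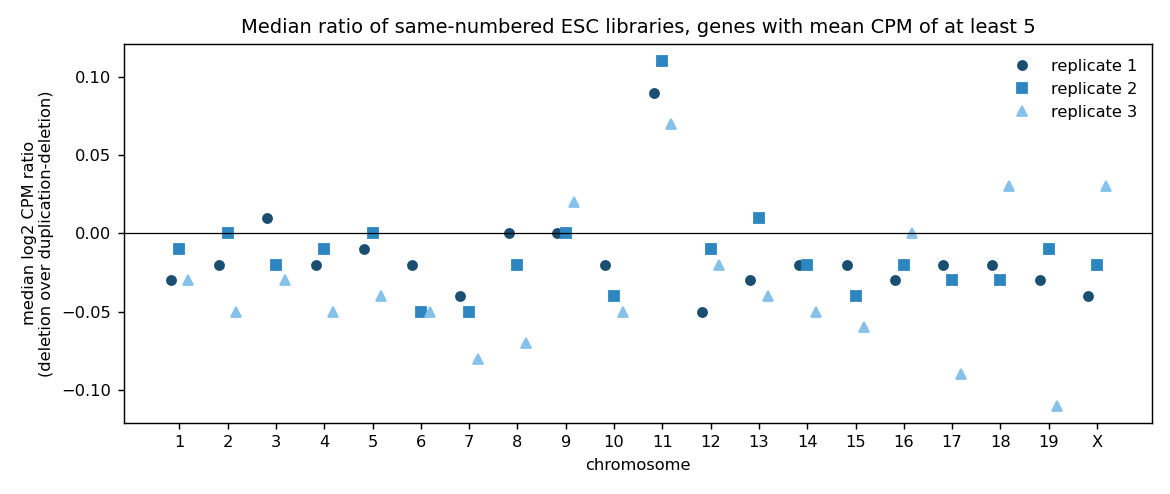
Median log2 CPM ratio (deletion over duplication-deletion, y axis) of each same-numbered pair of ESC libraries by chromosome (x axis), over genes with a mean of at least 5 CPM. Chromosome 11 stands at 0.09, 0.11 and 0.07, above the other chromosomes in all 3 pairs.

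Pou5f1, Nanog, Zfp42, Esrrb, Klf4 and Sox2 were expressed in all mutant libraries, and no tested pluripotency marker was called between the mutants by edgeR. The listed naive gene Tfcp2l1 was matched through another symbol to the entry Crtr-1, which was not tested. That entry had 0, 0 and 0.166 CPM in deletion ESCs, and 0, 0 and 0.033 CPM in duplication-deletion ESCs. It was as low in control ESCs, at 0, 0 and 0.0355 CPM, and whether it covers all transcripts of the gene was not tested. Pou5f1 (Oct4), the defining factor of pluripotency, had 155, 165 and 209 CPM in deletion ESCs, against 170, 182 and 296 CPM in duplication-deletion ESCs, and Esrrb had 190, 201 and 225 CPM in deletion ESCs, against 183, 179 and 257 CPM in duplication-deletion ESCs. Zfp42 (Rex1) and Sox2 had log2 fold changes of 0.04 (SE 0.367) and -0.25 (SE 0.318). Pou5f1 and Sox2 had lower values in deletion ESCs in all 3 pairs. Klf4 was higher in deletion ESCs in all 3 pairs, with 25.9, 18.7 and 41 CPM in deletion ESCs against 15.3, 10.5 and 26.3 CPM in duplication-deletion ESCs, and was not called (blocked log2 fold change 0.74, edgeR adjusted p = 0.659). Of 21 tested naive pluripotency genes 13 were positive (median 0.08), and of 10 core pluripotency genes 8 were negative (median -0.09), with no call in either list by edgeR, with or without the block, and no unadjusted p below 0.05 without it. With the block, 3 naive genes were higher (against 2.71% of all genes) and 0 lower (against 3.67%) at an unadjusted p below 0.05. The 3 were Klf4, Nr5a2 and Lifr, and at the same threshold 1 core gene, Sox2, was lower. Of 11 tested genes of the primed or formative state 8 were negative (median -0.29). Krt18 without the block (against 0.656% of all genes) and Dnmt3a and Dnmt3b with it (against 3.67%) were lower at an unadjusted p below 0.05. Markers of other cells were present to different degrees. Endoderm genes, 15 in all, summed to between 346 and 862 CPM in deletion ESCs and between 350 and 1070 CPM in duplication-deletion ESCs, most of it from basement membrane and secreted matrix genes such as Lama1 (75.3 to 183 CPM in deletion ESCs, 61.5 to 190 CPM in duplication-deletion ESCs) and Sparc (56.8 to 144 CPM in deletion ESCs, 60.8 to 214 CPM in duplication-deletion ESCs). Of 13 tested endoderm genes, 6 were positive and 7 negative. In all 3 pairs 4 were lower in deletion ESCs (against 16.5% of all genes) and 1 higher (against 14.2%). Among endoderm transcription factors, Sox17 was between 1.31 and 3.65 CPM in deletion ESCs and between 3.06 and 6.07 CPM in duplication-deletion ESCs. Gata6, the 1 higher in every pair, had 21.4, 10 and 10.8 CPM in deletion ESCs, against 15, 8.82 and 9.31 CPM in duplication-deletion ESCs. The summed level of 14 neural progenitor genes ran from 94.3 to 169 CPM in deletion ESCs and from 120 to 172 CPM in duplication-deletion ESCs. The sum of 15 mesoderm and primitive streak genes ran from 11.4 to 28 CPM in deletion ESCs and from 10.3 to 28 CPM in duplication-deletion ESCs. Feeder and fibroblast genes, 15 in all, summed to between 245 and 469 CPM in deletion ESCs and between 210 and 418 CPM in duplication-deletion ESCs, with Lum at 0 and most of the sum from fibronectin, Fn1 (213 to 397 CPM in deletion ESCs, 154 to 387 CPM in duplication-deletion ESCs). Of 12 tested feeder and fibroblast genes, 6 were positive and 6 negative. In all 3 pairs 3 were lower in deletion ESCs, Acta2 and Tagln among them, and 1 was higher, against 16.5% and 14.2% of all genes. No marker of these 4 lists was called by edgeR, with or without the block, and their part in the results above was not tested. In bulk libraries, fewer cells of a type and less RNA per cell cannot be told apart.

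Genes of the rare 2-cell-like cells of ESC cultures had mostly lower values in deletion ESCs. Of 20 tested, 16 were negative, with a median of -0.39, and none was called by edgeR, with or without the block; 1 was lower at an unadjusted p below 0.05 without the block, against 0.656% of all genes, and 9 with it, against 3.67%. Of the 20, 10 were lower in every pair (50%, against 16.5% of all genes) and 0 were higher in every pair (against 14.2%). Among the 9, 5 are Zscan4 genes, the zinc finger factors that mark this state. Gm4340 had 43.3, 30.8 and 39.2 CPM in deletion ESCs, 50.3, 70.1 and 107 CPM in duplication-deletion ESCs, and 67.4, 24.7 and 62.4 CPM in control ESCs. Its mutant groups did not overlap, but the control libraries spread across both, and the log2 fold change was -1.01 (SE 0.397, edgeR adjusted p = 1.0). Several of these genes are near-identical copies, so reads may be split between them.

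Large housekeeping groups were shifted by less than any called gene. Cytosolic ribosomal protein genes were negative in 77 of 79 tested, with a median of -0.31, and with the block 29 had an unadjusted p below 0.05 with lower values in deletion ESCs (against 3.67% of all genes), while none was called by edgeR. Rpl37, for example, had 250, 279 and 232 CPM in deletion ESCs, against 323, 374 and 313 CPM in duplication-deletion ESCs, without overlap (blocked edgeR adjusted p = 0.548; called by DESeq2 with the block). Respiratory chain genes were negative in 55 of 60 (median -0.21) and histone genes in 31 of 34 (median -0.43), again with no call by edgeR. Of all 16470 genes tested, 8627 were negative. Of 60 mitochondrial ribosomal protein genes, 46 were negative (median -0.11); Mrps34 had 5.18, 3.81 and 6.14 CPM in deletion ESCs, against 10.6, 9.88 and 10.9 CPM in duplication-deletion ESCs (blocked log2 fold change -1.1, edgeR adjusted p = 0.214; called by DESeq2 with the block). Autism-linked chromatin regulators, by contrast, were positive in 19 of 22 (median 0.15), against 47.6% of all genes, with no call by edgeR. The highest was Kdm6b at 0.8 (SE 0.766), and the smallest unadjusted p was that of Mll3, a histone methyltransferase, at 0.42 (SE 0.387). With the block 3 were higher at an unadjusted p below 0.05 (against 2.71% of all genes) and 0 were lower (against 3.67%).

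Genes tied to the interval by sequence or function gave no calls by edgeR. Of 31 tested paralogs of interval genes, 15 were positive and 16 negative, and the median was -0.0. Of 40 genes for partner subunits of interval proteins, 26 were negative (median -0.04), and Ino80b, a partner of Ino80e, was at 2, 0.893 and 1.49 CPM in deletion ESCs, against 2.5, 2.89 and 2.57 CPM in duplication-deletion ESCs. Feedback targets of the ERK pathway, 17 tested, had a median of -0.1, and 17 glycolysis genes one of -0.09. Protocadherin gamma genes, a family that the series title names, had a median of -0.06 over 22 tested, and 15 CTCF and cohesin genes had a median of 0.05. No member of these 6 lists was called by edgeR, with or without the block, or had an unadjusted p below 0.05 without it.

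**Figure D5:**
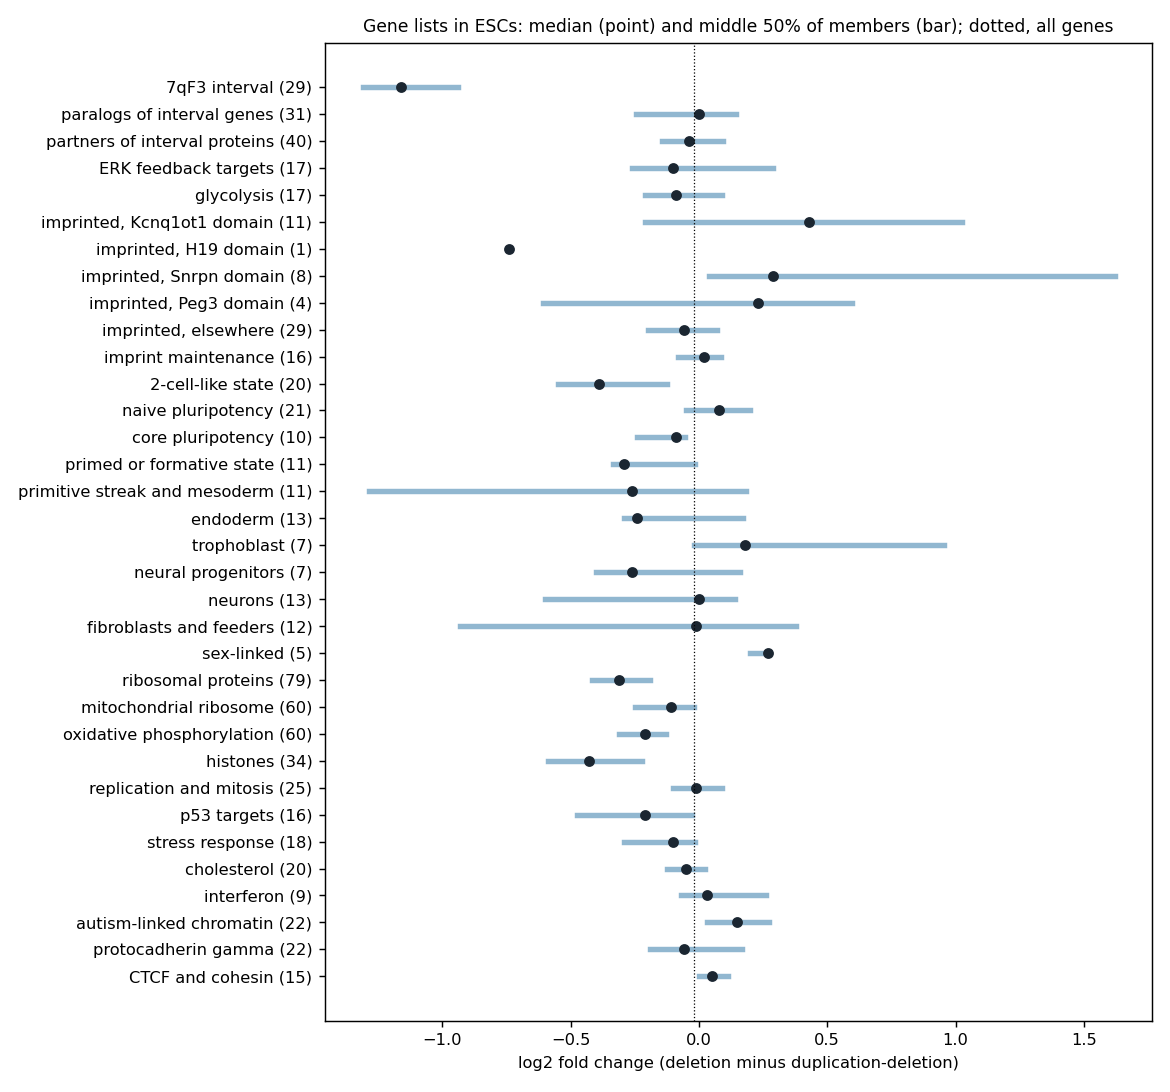
Median log2 fold change (deletion minus duplication-deletion, x axis; points) and middle 50% of members (bars) of gene lists (y axis, number tested in brackets) in ESCs, with the median of all genes dotted at -0.02. The 7qF3 interval stands at -1.16; the others run from -0.74, the 1 tested gene of the H19 domain, to 0.43, the Kcnq1ot1 domain.

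The same pair of genotypes was also sequenced as neural progenitor cells (NPCs), 3 libraries each, at day 5 of differentiation. The interval was lower there as well, with 24 of 27 tested genes negative and a median log2 fold change of -0.77. The difference of the genotype effect between ESCs and NPCs was negative in 22 of 29 interval genes, with a median of -0.4, against -0.09 over all genes. None was called by edgeR's interaction test (3 of 19996 genes called, 0.015%; 688, or 3.44%, with an unadjusted p below 0.05), so a different size of the effect in ESCs was not shown. Maz and 2900092E17Rik had an unadjusted p below 0.05, with log2 fold changes of -1.31 and -1.57 in ESCs and -0.51 and -0.8 in NPCs. The 3 imprinted genes called in ESCs with the block pointed the same way at both stages. Cdkn1c had log2 fold changes of 1.51 in ESCs and 1.69 in NPCs, D7Ertd715e 2.65 and 2.7, and Snurf 2.28 and 3.15. None of them was called in NPCs. Their differences between stages were -0.21 (SE 0.626), -0.08 (SE 0.966) and -0.91 (SE 0.79). Not all named genes kept their direction or size. AK220028, also called in ESCs with the block, had log2 fold changes of -1.8 in ESCs and 1.65 in NPCs. Xlr3a had 1.49 and -2.49, AK010878 had -1.55 and -0.01, and the imprinted Zim1 had -0.05 and -4.69.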

How the data were processed

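Expected counts per gene, deposited by the authors, were made from stranded total RNA libraries read as paired ends of 75 bases, with STAR 2.6.0c and RSEM 1.3.0 on mm9, per the submitters' processing notes; strand use in counting is not given in the sources used here. Gene positions were taken from the authors' deposited table of comparisons, whose other columns were not used. Counts were rounded, 92 spike-in entries were left out, and 29876 gene entries remained. The 9 ESC libraries were fitted with edgeR 4.0.16 in R 4.3.3 (robust quasi-likelihood, TMM, filterByExpr by group), which left 16470 genes, with Benjamini-Hochberg adjusted p below 0.05 as the threshold and two-sided tests. SE is the log2 fold change divided by the root of F. Stages were compared in a joint fit of 28 libraries. Alternatives used DESeq2 1.42.0, limma 3.58.1, other scaling and filters, and left-out libraries. The scripts were tested on simulated data.

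Spike-ins took 0.732% of deletion replicate 1, 0.738% of duplication-deletion replicate 1 and 1.8% of control replicate 1, and almost none elsewhere. In deletion replicate 3, with 5578151 counts in all, low genes are imprecise. That library also differed in composition. Its largest entry was Lars2, with 23.1% of counts, while GU332589 was the largest in every other ESC library, with 20.6% to 29.8%. No libraries were copies of each other. Deviations of same-numbered ESC libraries from their group means correlated between 0.224 and 0.692 over 9 pairs (0.224 to 0.569 for deletion with duplication-deletion), against -0.491 to 0.24 for different numbers, so the numbers were taken to pair the libraries, from the data and not from the labels. The main test had no block.

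Named genes were all interval genes, genes called with or without the block, the 8 largest differences per direction among genes with unadjusted p below 0.05 whose mutant groups did not overlap and whose mean CPM was 5 or more, up to 4 members per list with the smallest p, the 5 nearest genes on each side, and fixed identity markers. Others were chosen after their values were seen, among them Mkrn3, Ube3a, Nap1l4, Cd81 and Tet1. Members and gene lists were chosen with earlier results of these data known. Symbols of 766 of 793 listed genes were found.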

Additional observations from a re-analysis of the deposited data

Results flagged for a closer look

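Of all genes in the joint fit, 3 had an effect of the deletion against the duplication-deletion that differed between ESCs and NPCs by edgeR's interaction test, and they were named after their values were seen. For Zim1, an imprinted gene of the Peg3 domain, the ESC minus NPC difference was 4.6 on the log2 scale (SE 0.669, edgeR adjusted p = 0.00769). It had 0.988, 1.08 and 1.61 CPM (by total counts) in deletion ESCs, against 0.913, 1.74 and 1.31 in duplication-deletion ESCs, and 0.803, 0.864 and 1.04 in deletion NPCs, against 23.7, 27.2 and 18.9 in duplication-deletion NPCs. The difference thus came from the NPC libraries. For 2210016F16Rik on chromosome 13 it was 3.19 (SE 0.503, edgeR adjusted p = 0.0143), and for Gm1564 on chromosome 11 it was 6.29 (SE 1.1, edgeR adjusted p = 0.0437). Gm1564 had 65.1, 78.9 and 83.9 CPM in deletion ESCs, against 36.5, 69.4 and 53.3 in duplication-deletion ESCs, and 1.12, 0.0206 and 0.831 in deletion NPCs, against 17.5, 12.6 and 79 in duplication-deletion NPCs.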

How the results depend on the processing

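The interval median kept its sign in every alternative, at -0.96 to -1.29, with -1.16 under the replicate block. The count of genes called was 0 without the block, with DESeq2 size factors, with no filter, with limma-voom and with the 6 mutant libraries alone. It was 13 with the replicate block and 18 with DESeq2. Leaving out 1 library gave 0 to 1 without the block, the 1 being Gramp3 without duplication-deletion replicate 3, and 3 without replicate 3 of all genotypes. With the block it was 16, 14 and 10 without replicate 1, 2 or 3 of all genotypes. Alternatives chosen after seeing the data gave 0 without any control library, 0 to 12 with the block and without 1 mutant library, 49 with DESeq2 and the block and 15 with limma-voom and the block. Both of these sets held all 13 blocked calls. The cause of these differences was not tested.

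Direction changed for 4 interval genes of low level or small difference, and the cause was not tested. Sez6l2 was -0.74 by limma-voom and -0.8 by limma-voom with the block. With 1 library or number left out and no block, the log2 fold changes ran from -2.02 to 0.79 for Sez6l2, from -0.59 to 0.21 for Kctd13 and from -1.01 to 0.91 for Coro1a. With the block they turned for Sez6l2 without deletion or duplication-deletion replicate 2 (-3.05, -0.73), for Kctd13 without replicate 1 or duplication-deletion replicate 1 (0.14, 0.32), for Coro1a without replicate 3 or its deletion or duplication-deletion library (0.33, 0.19, 0.27), and for Prrt2 without replicate 1, its deletion or duplication-deletion library, or duplication-deletion replicate 3 (0.23, 0.12, 0.1, 0.01). The count of genes whose effect differed between stages was 3, or 49 with DESeq2, and 0 to 6 with 1 library left out. In fits that left 1 sample in a group at a stage or number, that sample was assumed to vary like the others. Depth limits genes under about 1 CPM, above all in deletion replicate 3, and 4 interval genes could not be tested.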
